A study of Mus musculus with 18 samples.

Results

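Aminoacyl-tRNA synthetases, the enzymes that join each amino acid to its transfer RNA, were followed over 6 groups of mouse samples. Genes were taken by symbol in the platform's probe annotation: an amino acid's letter followed by "ars" with an optional 1 or 2, with Eprs, Ears2, Farsa and Farsb. This gave 35 genes with 77 probes, out of 19057 named genes and 45281 probes on the array. By the suffix 2, 16 genes were counted as mitochondrial and the other 19 as cytosolic. The genes for the aspartate enzymes carry no symbol of this form there and were not analysed here. Of the 77 probes, 57 had a detection p under 0.01 on at least 3 arrays. These belonged to all 19 cytosolic genes and to 13 of the 16 mitochondrial ones, and 32 genes were therefore tested. Hars2, Nars2 and Yars2 had no probe past this filter, and nothing is said of their levels.

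The arrays were Illumina BeadChips, on which bead-bound probes read labelled copies of the sample's RNA as a light intensity. The 18 samples, all labelled strain C57/BL6, were 3 biological replicates each of naive CD4 T cells (helper T cells before activation by antigen), Th1 cells and Th2 cells (helper T cell subsets named for the cytokines they make), B cells, dendritic cells and whole brain. The 5 immune groups are labelled wild type, and brain carries no genotype label. The 5 immune groups are labelled as coming from male and female mice and brain from males. Age, numbers of mice pooled and the culture conditions of the Th1 and Th2 cells are not stated in the labels.

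The labelled identities were checked against cell type markers before the synthetases were compared. All 7 T cell markers were detected on at least 1 naive array and 0 in brain, all 4 tested B cell markers on all B cell arrays, all 5 tested dendritic cell markers on all dendritic cell arrays, and the neuron, astrocyte and oligodendrocyte markers tested (3, 4 and 3) on all brain arrays. The dendritic cell samples also held message of other cell types. All 5 granulocyte markers, all 3 tested NK and CD8 T cell markers and all 4 tested macrophage and monocyte markers were detected on all 3 dendritic cell arrays, with list medians per array of 12.13 to 13.15, 9.49 to 10.02 and 9.42 to 9.64. On the naive CD4 T cell arrays the same medians were 4.27 to 4.89, 4.25 to 4.44 and 4.30 to 5.33. Also detected on all 3 dendritic cell arrays were 3 of 4 B cell markers, 6 of 7 T cell markers and 3 of 4 erythroid markers, with list medians of 7.36 to 8.20, 6.41 to 7.26 and 6.60 to 8.72. All 3 B cell arrays detected 3 of 7 T cell, 2 of 4 macrophage and monocyte and 1 of 4 erythroid markers. Their list medians were 4.66 to 5.33, 5.23 to 5.36 and 4.64 to 6.81. They also all detected 1 of 5 granulocyte and 1 of 3 NK and CD8 T cell markers. All 3 naive arrays detected 1 of 4 B cell markers, with list medians of 4.58 to 5.09, 1 of 3 NK and CD8 T cell and 1 of 4 erythroid markers. All Th1 arrays detected 2 of 5 dendritic and 1 of 3 NK and CD8 T cell markers. All Th2 arrays detected 1 of 5 dendritic, 1 of 3 NK and CD8 T cell, 1 of 4 macrophage and monocyte and 1 of 4 erythroid markers. Ifng, the message for the Th1 cytokine interferon gamma, read 14.50 ± 0.05 (SD, n = 3) on a log2 scale in Th1 cells and 13.63 ± 0.15 in the samples labelled Th2, so it was high in both, against 4.77 ± 0.63 in naive cells, where it was detected on 1 of 3 arrays. Between 12564 and 16259 probes were detected on each immune array and between 20377 and 20497 on each brain array.

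The cytosolic enzymes charge transfer RNAs for translation on cytoplasmic ribosomes, and the mitochondrial enzymes, encoded by separate nuclear genes, serve the small set of proteins made inside mitochondria. Gars and Kars are exceptions, since each encodes both forms of its enzyme, and they were kept with the cytosolic genes. Several cytosolic enzymes sit together in a multi-synthetase complex held by the scaffold proteins Aimp1, Aimp2 and Eef1e1. Synthetases fall into class I and class II by the fold of the catalytic domain. Many cytosolic synthetase genes are known targets of ATF4, the transcription factor of the amino acid response, and Wars, the tryptophan enzyme, is known for its induction by interferon gamma.

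Promoters from RefSeq (build GRCm38.p6), from 250 bases before to 50 bases after the annotated start, were found for 26 of the 35 genes. They are shown because 5 cytosolic genes that were higher in Th1 cells than in naive CD4 T cells share a match to the core of the element bound by C/EBP and ATF factors (TGATGNAA, either strand). Capitals mark this core and the E-box (CACGTG, which reads the same on both strands), the site of Myc and related factors. Cars2, a mitochondrial gene that was lower, holds neither and is given for contrast.
Aars, chr8:111033592-111033891, plus strand: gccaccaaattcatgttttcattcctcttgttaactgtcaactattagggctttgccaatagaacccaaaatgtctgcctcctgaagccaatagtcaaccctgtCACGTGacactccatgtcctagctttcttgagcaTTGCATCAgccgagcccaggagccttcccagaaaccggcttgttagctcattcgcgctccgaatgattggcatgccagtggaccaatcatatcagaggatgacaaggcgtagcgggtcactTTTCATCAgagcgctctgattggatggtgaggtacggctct
Iars, chr13:49681880-49682179, plus strand: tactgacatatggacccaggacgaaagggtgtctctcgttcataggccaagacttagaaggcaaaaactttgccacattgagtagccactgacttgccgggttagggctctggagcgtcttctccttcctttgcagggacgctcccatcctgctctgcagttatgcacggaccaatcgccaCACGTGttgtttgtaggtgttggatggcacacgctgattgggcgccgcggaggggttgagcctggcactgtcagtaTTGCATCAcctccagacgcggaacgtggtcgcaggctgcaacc
Gars, chr6:55037751-55038050, plus strand: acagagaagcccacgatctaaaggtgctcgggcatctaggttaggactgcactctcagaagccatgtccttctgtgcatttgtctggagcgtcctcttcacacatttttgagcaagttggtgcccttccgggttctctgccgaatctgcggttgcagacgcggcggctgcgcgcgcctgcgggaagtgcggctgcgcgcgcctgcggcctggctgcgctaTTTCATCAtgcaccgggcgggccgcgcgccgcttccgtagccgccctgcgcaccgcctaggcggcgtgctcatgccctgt
Tars, chr15:11399609-11399908, minus strand: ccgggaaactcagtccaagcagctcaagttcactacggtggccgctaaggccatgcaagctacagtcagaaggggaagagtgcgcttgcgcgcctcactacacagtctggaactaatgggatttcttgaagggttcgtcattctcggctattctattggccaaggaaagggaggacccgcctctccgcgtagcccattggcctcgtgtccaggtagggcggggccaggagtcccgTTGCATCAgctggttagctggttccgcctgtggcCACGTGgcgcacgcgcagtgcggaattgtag
Yars, chr4:129189653-129189952, plus strand: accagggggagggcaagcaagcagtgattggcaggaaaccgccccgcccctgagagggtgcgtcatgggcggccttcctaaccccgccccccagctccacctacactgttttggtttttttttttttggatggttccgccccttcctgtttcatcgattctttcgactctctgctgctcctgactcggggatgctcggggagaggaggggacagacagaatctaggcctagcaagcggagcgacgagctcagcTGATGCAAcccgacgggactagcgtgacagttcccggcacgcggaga
Cars2, chr8:11550722-11551021, minus strand: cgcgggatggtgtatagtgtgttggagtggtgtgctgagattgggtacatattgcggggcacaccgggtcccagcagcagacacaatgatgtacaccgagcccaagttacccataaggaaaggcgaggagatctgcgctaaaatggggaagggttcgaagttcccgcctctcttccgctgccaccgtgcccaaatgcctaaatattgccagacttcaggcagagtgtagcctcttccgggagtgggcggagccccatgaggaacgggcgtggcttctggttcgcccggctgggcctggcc

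The C/EBP-ATF core was present in 5 of the 12 cytosolic genes with a promoter, which were Aars, Gars, Iars, Tars and Yars, and in 0 of the 14 mitochondrial ones. Of the 8 cytosolic genes with a promoter that rose in Th1 cells 5 hold it, and Eprs, Kars and Mars1 do not. Yars is among the 5, but it passed the detection filter only through Th1 and Th2 arrays. Its rise did not pass under any other scaling tried. Counted by gene, as the members are, 4.51% of 27025 mouse genes had the core in a promoter of this length. Counted by promoter, the share was 3.97% of 32851. In Gars it lay between 30 and 23 bases before the start, and in Tars between 15 and 8 bases before it. In Iars it ran from base 8 to base 15 of the transcript and in Yars from base 4 to base 11. Aars had a pair of matches, at 112 to 105 bases before the start and at bases 10 to 17 after it. The E-box was found in 4 of the 12 cytosolic genes, Aars, Iars, Tars and Farsb, and in 1 of the 14 mitochondrial ones, Ears2. Of all genes 8.09% had it. A STAT site (TTCNNNGAA) was found in 2 of the 12 cytosolic genes, Aars and Kars, and in 1 of the 14 mitochondrial ones, Nars2. Of all genes 9.55% had it. No match to one motif overlapped a match to another. These matches describe the letters in a window and are not evidence of binding.

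Th1 cells carried more message for most cytosolic synthetases than naive CD4 T cells, and less for several mitochondrial ones. Of the 19 cytosolic genes, 10 rose and 0 fell at a limma adjusted p under 0.05 and a log2 difference of at least 1. By the same rule 13.0% of all 12094 genes tested rose. Yars, counted among the 10, passed the detection filter only through Th1 and Th2 arrays. Of the 13 mitochondrial genes, 0 rose and 3 fell, where 15.4% of all genes fell. The median log2 difference was 1.04 over the cytosolic genes, -0.69 over the mitochondrial genes and -0.02 over all genes tested. These are bulk samples, so fewer cells of a type and less RNA per cell cannot be told apart. By the adjusted p alone, 15 cytosolic genes were higher and 0 lower, beside 24.4% of all genes higher. By the same criterion 1 mitochondrial gene, Mars2, was higher and 9 were lower, beside 29.4% of all genes lower.

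Among members of the multi-synthetase complex, 5 of 7 rose in Th1 cells. Iars, the isoleucine enzyme, had normalized log2 intensities of 8.44, 8.42 and 8.50 on the 3 naive arrays and of 10.30, 10.24 and 9.86 on the 3 Th1 arrays. All Th1 arrays lay above all naive arrays, and the difference was 1.68 ± 0.12 (SE; adjusted p = 2.32e-09), a 3.20-fold rise. Mars1, the methionine enzyme, read 7.67, 7.43 and 7.80 in naive cells and 9.10, 8.95 and 9.79 in Th1 cells. Its difference was 1.65 ± 0.24, and the third Th1 array stood above the others. The SE is pooled over the 6 groups, and the largest SD of Mars1 was in Th2 cells (0.47). Rars (arginine) rose by 1.33 ± 0.11, Eprs, which joins the glutamate and proline enzymes in a single protein, by 1.25 ± 0.13, and Kars (lysine) by 1.19 ± 0.13. The remaining complex members did not pass: Lars (leucine) differed by 0.37 ± 0.15 and Qars (glutamine) by 0.06 ± 0.11.

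Outside the complex, Aars, the alanine enzyme, went from 8.84, 8.53 and 8.71 in naive cells to 10.22, 10.47 and 10.32 in Th1 cells. The groups did not overlap, and the rise of 1.64 ± 0.10 had the lowest adjusted p among the members (6.51e-10). Gars, the glycine enzyme, read 11.37, 11.43 and 11.52 in naive and 12.72, 13.02 and 13.22 in Th1 cells, a rise of 1.54 ± 0.16. Tars (threonine) was dim, at 5.33, 5.62 and 5.39 in naive cells, and reached 7.24, 6.84 and 6.34 in Th1 cells, so its rise of 1.36 ± 0.23 came with a large spread. Cars (cysteine) rose by 1.31 ± 0.17. Yars, the tyrosine enzyme, was detected on 3 of 3 Th1 arrays and on 0 of 3 naive arrays, which gives at least a 1.51-fold higher level (fitted adjusted p = 1.67e-05). Its fitted difference of 1.04 ± 0.15 lay at the threshold and missed it without Th1 replicate 1 (0.98) or naive replicate 3 (0.96), and with each other scaling tried (0.61, 0.62 and 0.32). Nars (asparagine, 0.97 ± 0.16), Wars (0.96 ± 0.12), Farsb (the beta chain of the phenylalanine enzyme, 0.74 ± 0.09) and Sars (serine, 0.63 ± 0.16) met the adjusted p and not the fold threshold. Without Th1 replicate 3 Nars and Wars passed (1.10 and 1.07), as did Nars without naive replicate 1 (1.08). Farsa, Vars and Hars met neither, at 0.32 ± 0.20, 0.25 ± 0.21 and 0.20 ± 0.12.

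**Figure D1:**
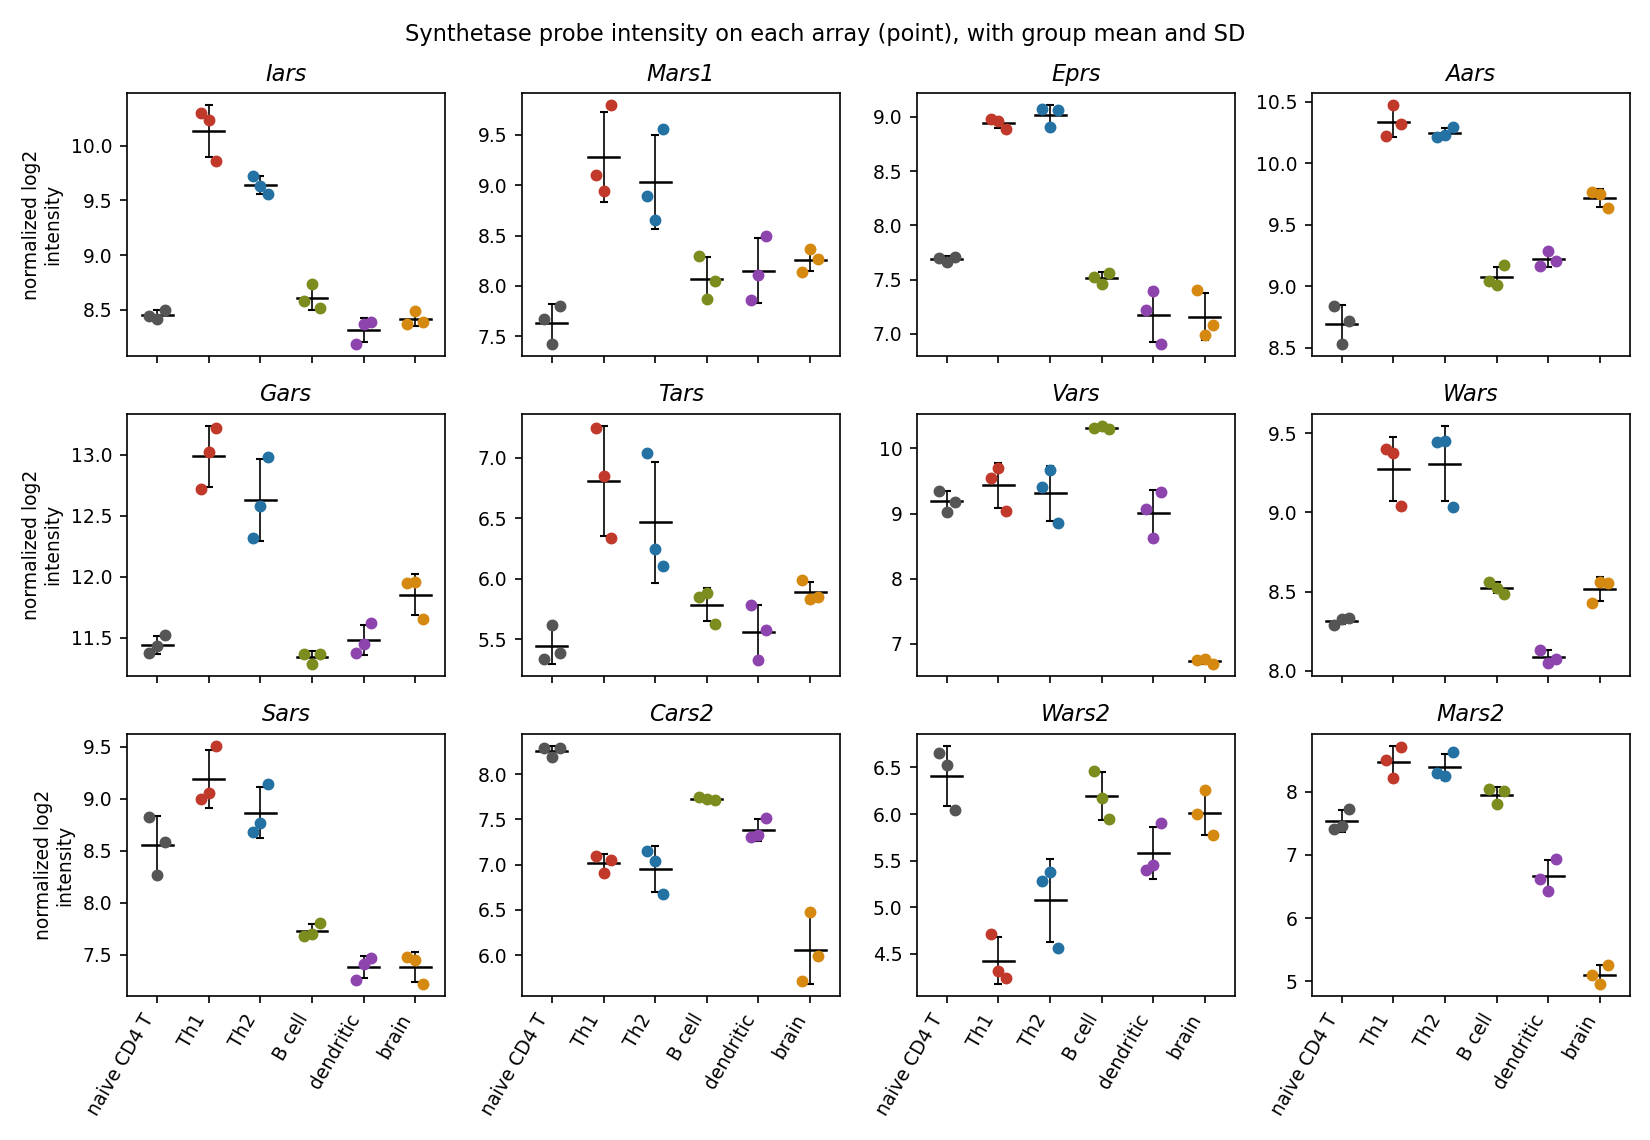
Normalized log2 intensity (vertical axes, 1 scale per gene) of 12 synthetase genes on each of the 18 arrays, by group. Points are arrays, the long bar is the group mean and the whiskers its SD (n = 3); Iars, Mars1, Eprs, Aars, Gars, Tars and Wars sit higher on all 3 Th1 and all 3 Th2 arrays than on any naive array, and Cars2 and Wars2 lower.

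The mitochondrial genes that fell in Th1 cells were those for tryptophan, cysteine and leucine. Wars2 read 6.66, 6.53 and 6.04 on the naive arrays and 4.72, 4.32 and 4.24 on the Th1 arrays, where it was detected on 0 of 3, so its level was at least 2.00-fold lower (fitted adjusted p = 1.26e-06). Cars2 went from 8.28, 8.19 and 8.29 to 7.10, 6.90 and 7.05, a fall with no overlap, at a log2 difference of -1.24 ± 0.16. Lars2 went from 7.59, 7.53 and 7.76 to 6.72, 6.51 and 6.50, a log2 difference of -1.05 ± 0.19. Ears2 (-0.97 ± 0.09), Fars2 (-0.96 ± 0.17) and Iars2 (-0.83 ± 0.14) met the adjusted p and not the fold threshold. Mars2, the mitochondrial methionine enzyme, differed in the other direction, at 0.95 ± 0.16, which also missed the fold threshold. Lars2 did not pass without naive replicate 3 (-0.98). Fars2 passed without Th1 replicate 3 or naive replicate 2 (-1.17 and -1.01), and Mars2 without Th1 replicate 2 or naive replicate 3 (1.08 and 1.05). With no background subtraction Wars2 (-0.99), Lars2 (-0.78), Tars (0.80) and Yars (0.46) did not pass in Th1 cells, and Tars (0.58) and Wars2 (-0.69) did not in Th2 cells.

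In Th2 cells 8 cytosolic genes rose and 0 fell against the same naive arrays, beside 12.6% of all genes that rose. Of the mitochondrial genes 0 rose and 2 fell, beside 14.4% of all genes that fell. The medians were 0.90 for cytosolic, -0.54 for mitochondrial and -0.01 for all genes. By the adjusted p alone, 15 cytosolic genes were higher and 1, Qars, lower, and 2 mitochondrial genes were higher and 7 lower, beside 24.0% of all genes higher and 28.4% lower. The Th1 and Th2 comparisons share the 3 naive arrays and are therefore not independent.

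The largest Th2 difference was that of Aars, with 10.22, 10.23 and 10.29 on the Th2 arrays and a rise of 1.55 ± 0.10 (adjusted p = 1.41e-09). Rars read 8.53, 8.95 and 8.73 in naive and 10.19, 10.11 and 10.22 in Th2 cells, a rise of 1.44 ± 0.11. Mars1 rose by 1.40 ± 0.24, from arrays of 8.90, 8.65 and 9.56. Eprs went from 7.70, 7.66 and 7.71 in naive to 9.07, 8.91 and 9.06 in Th2 cells, and on 8.98, 8.96 and 8.89 in Th1 cells it was as tightly grouped. Its rise in Th2 cells was 1.32 ± 0.13. Kars moved from 8.32, 8.51 and 8.19 to 9.64, 9.59 and 9.71, a rise of 1.31 ± 0.13. Iars (1.19 ± 0.12), Gars (1.18 ± 0.16) and Tars (1.02 ± 0.23) also passed. Tars lay close to the threshold and did not pass without naive replicate 1, naive replicate 3 or Th2 replicate 1 (0.96, 0.99 and 0.73). Wars passed without Th2 replicate 3 or naive replicate 3 (1.13 and 1.00), Yars without Th2 replicate 3 (1.07), and Lars2 without Th2 replicate 1 or 2 (-1.13 and -1.06). Wars2 read 5.28, 5.38 and 4.56 in Th2 cells, where it was detected on 1 of 3 arrays, a log2 difference of -1.33 ± 0.23, and Cars2 read 7.15, 7.04 and 6.67, a difference of -1.30 ± 0.16.

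**Figure D2:**
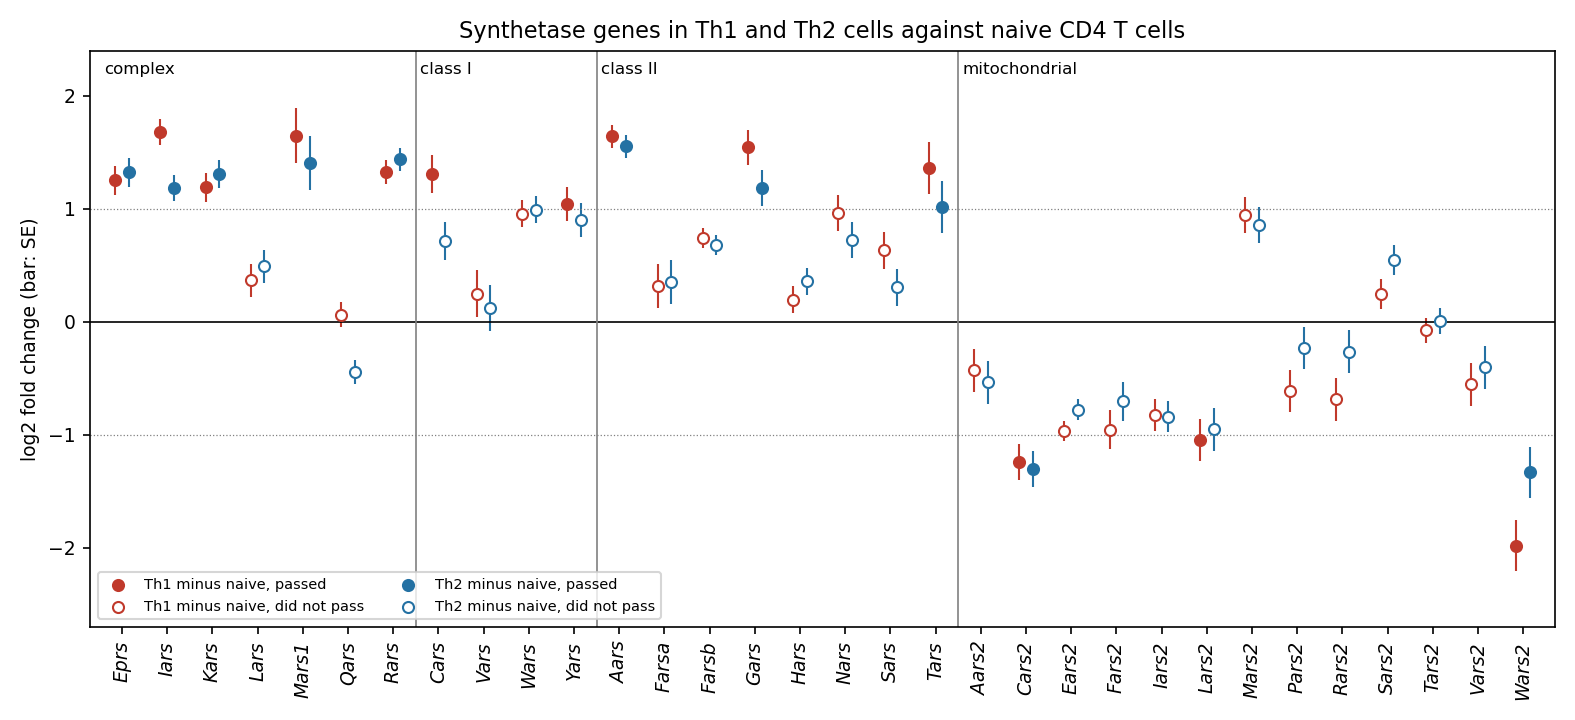
Log2 fold change (vertical axis) with its SE for the 32 tested synthetase genes in Th1 (red) and Th2 cells (blue) against naive CD4 T cells, by role. Filled points passed (adjusted p under 0.05 and a log2 difference of at least 1, dotted lines); all 19 cytosolic genes lie above 0 for Th1 cells and 11 of the 13 mitochondrial genes below it.

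The cytosolic and mitochondrial enzymes for the same amino acid could be compared in 13 pairs, in which Farsa and Farsb share the partner Fars2, and Eprs was set against Ears2. The cytosolic log2 difference was the larger in 13 of 13 pairs for Th1 cells and in 12 of 13 for Th2 cells. The exception was serine in Th2 cells, where Sars differed by 0.31 ± 0.16 and Sars2 by 0.55 ± 0.13. In other comparisons the count was 11 of 13 for Th1 against Th2 cells, 10 of 13 for B cells and 8 of 13 for dendritic cells against naive CD4 T cells, 8 of 13 for dendritic cells against B cells and 6 of 13 for brain against the immune groups. In the cysteine pair the Th1 differences were 1.31 for Cars and -1.24 for Cars2. In the methionine pair both genes had positive differences in Th1 cells, at 1.65 for Mars1 and 0.95 for Mars2. Aars2 and Wars2 were not above background in some of these groups, so the values of their pairs rest on fitted differences only.

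**Figure D3:**
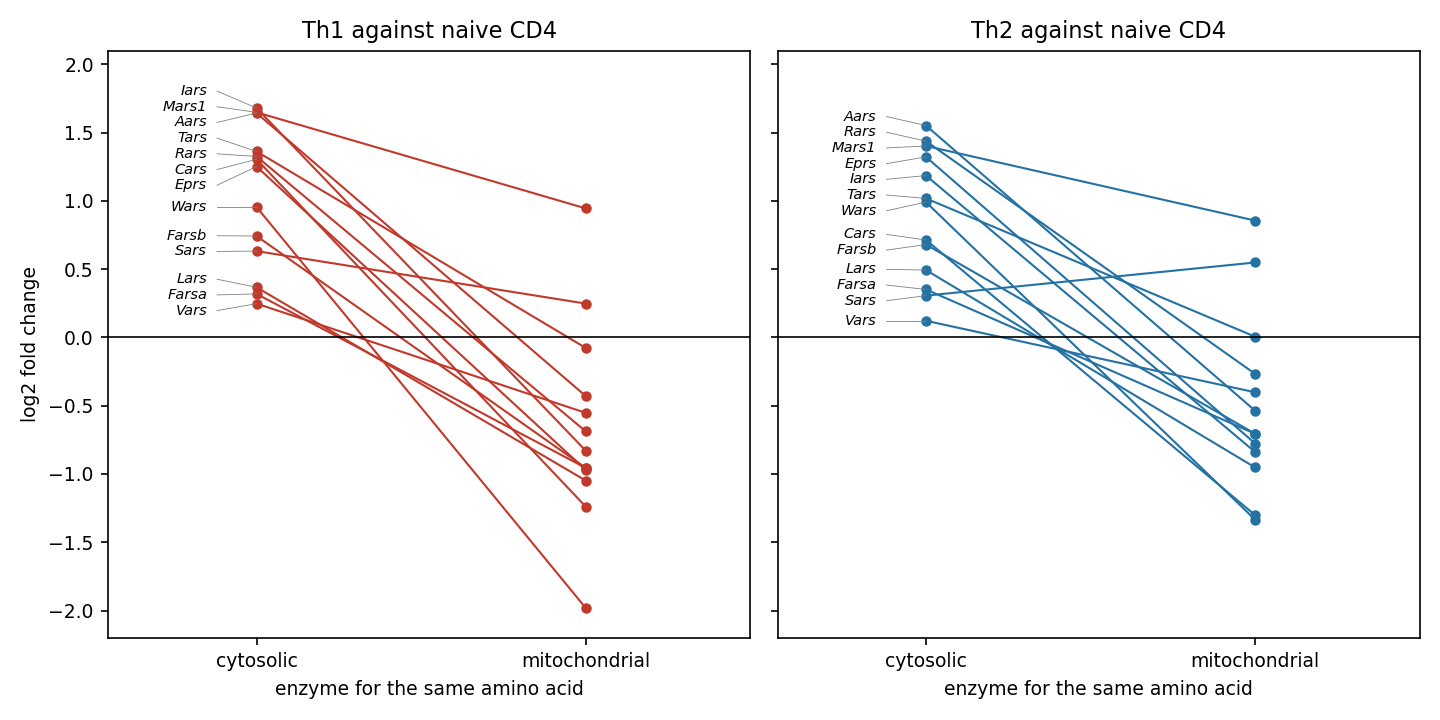
Log2 fold change against naive CD4 T cells (vertical axis) of the cytosolic gene and its mitochondrial partner for the same amino acid, joined by a line and named by the cytosolic gene, for Th1 (left) and Th2 cells (right). All 13 lines slope down for Th1 cells, and 12 of 13 do for Th2 cells, with Sars to Sars2 as the exception.

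Wars did not pass on the probe that stood for the gene, the brightest of its 4 detected probes, and passed on the other 3. The brightest probe read 8.32 ± 0.02 (SD, n = 3) in naive, 9.27 ± 0.20 in Th1 and 9.31 ± 0.24 in Th2 cells. On the other 3 probes the rise was 1.40 ± 0.17, 1.44 ± 0.12 and 1.79 ± 0.18 (SE) in Th1 cells and 1.23 ± 0.17, 1.44 ± 0.12 and 1.75 ± 0.18 in Th2 cells. Every Wars probe thus had a positive difference, and the size depended on the probe. The mean over detected probes gave 1.39 in Th1 and 1.35 in Th2 cells, both past the threshold. For genes that passed, the other detected probe did not always do so. The other probe of Cars2 gave -0.58 ± 0.24 in Th1 and -0.66 ± 0.24 in Th2 cells, that of Mars1 0.97 ± 0.10 and 0.62 ± 0.10, and that of Aars 0.62 and 0.92, none of which passed. The other probe of Wars2 was not above background in naive, Th1 or Th2 cells. Another Sars probe did pass in Th1 cells, at 1.26. Another Ears2 probe was detected on 3 of 3 naive arrays and on 0 of 3 Th1 and 0 of 3 Th2 arrays, at least 1.23-fold and at least 1.24-fold lower.

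Interferon gamma response genes were read beside Wars. Ifng itself rose in both Th1 and Th2 cells, by 9.73 ± 0.50 and 8.87 ± 0.50. Of 19 tested genes of that list, 7 rose and 5 fell in Th1 cells, and 6 rose and 2 fell in Th2 cells. Over all genes tested, 13.0% rose and 15.4% fell in Th1 cells, and 12.6% and 14.4% did in Th2 cells. The guanylate-binding protein gene Gbp3 rose by 3.60 ± 0.18 and 2.46 ± 0.18, while Irf1, a transcription factor induced by interferons, fell by 2.09 on the log2 scale in Th1 cells and differed by -0.64 ± 0.16 in Th2 cells. The members of this list therefore moved in both directions.

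No synthetase separated Th1 from Th2 cells by the full rule: 0 of 32 passed, where 4.50% of all genes did. At an unadjusted p under 0.05 the count was 8 of 32, beside 24.9% of all genes, and a fit with the replicate number as a block, in which the Th1 and Th2 arrays are paired, also gave 0. By the adjusted p alone 3 genes were higher in Th1 cells and 0 lower, beside 6.78% of all genes higher. These were Qars (0.51, 95% interval 0.28 to 0.74, adjusted p = 0.00413), Iars (0.49, interval 0.25 to 0.74, adjusted p = 0.00745) and Cars (0.59, interval 0.23 to 0.95, adjusted p = 0.0272). Those values come from the limma fit without a block, which leaves the pairing out. With the block, limma gave an adjusted p of 0.0237 for Qars, 0.0416 for Iars and 0.0180 for Cars. Qars read 10.69, 10.75 and 10.46 on the Th1 arrays and 10.21, 10.19 and 9.97 on the Th2 arrays, with no overlap. Wars2 and Aars2 were not above background on any Th1 array and on 1 and 0 of the 3 Th2 arrays, and no size is given for their differences. A miss of the threshold does not show equal levels.

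Several members were high or low on the same replicate number in Th1 and Th2 cells. Gars was highest on replicate 3 in both, at 13.22 in Th1 and 12.98 in Th2 cells, as were Mars1 at 9.79 and 9.56 and Sars at 9.51 and 9.14. Wars was lowest on replicate 3 in both, at 9.04 and 9.03, and so was Vars at 9.05 and 8.85. Tars was highest on replicate 1 in both, at 7.24 and 7.04. These are single arrays, and no test was made of them.

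Genes of related functions were described by counts and medians. Beside these counts, 13.0% of all genes rose and 15.4% fell in Th1 cells, and 12.6% and 14.4% did in Th2 cells. Of 20 tested genes of the ATF4 and amino acid response list, 15 rose and 1 fell in Th1 cells and 17 rose and 1 fell in Th2 cells, with medians of 2.26 and 2.25. Asns, asparagine synthetase, was detected in Th1 and Th2 cells and not on the naive arrays, and was at least 60.2-fold higher in Th1 and at least 60.9-fold higher in Th2 cells. Chac1, a glutathione-degrading enzyme, was at least 40.4-fold and at least 28.5-fold higher. Atf4 differed by 0.79 ± 0.17 in both and did not pass the fold threshold, and Ddit4, an inhibitor of mTORC1, had log2 differences of -1.95 ± 0.35 and -2.06 ± 0.35. Among 13 amino acid transporters 7 rose and 1 fell in Th1 cells, and 6 rose and 1 fell in Th2 cells. Slc7a3, which carries cationic amino acids, rose by 4.10 ± 0.33 and 3.46 ± 0.33, and Slc1a4, a transporter of small neutral amino acids, by 3.89 ± 0.30 and 3.06 ± 0.30. Slc38a2 had differences of -1.41 ± 0.26 and -1.48 ± 0.26.

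Of the 3 scaffold genes of the multi-synthetase complex, Eef1e1 rose by 2.35 ± 0.21 in both Th1 and Th2 cells, while Aimp2 differed by 0.71 ± 0.16 and 0.99 ± 0.16 and Aimp1 by 0.17 ± 0.09 and 0.24 ± 0.09. Of 7 elongation factors 1 rose in each, Eif5a, by 1.76 ± 0.19 and 1.83 ± 0.19, and 0 fell. Eef1a1, which delivers charged transfer RNA to the ribosome, differed by 0.05 ± 0.10 and 0.14 ± 0.10. Of 24 tRNA processing genes 8 rose and 1 fell in Th1 cells and 10 rose and 1 fell in Th2 cells. Among all genes 13.0% rose and 15.4% fell in Th1 cells, and 12.6% and 14.4% did in Th2 cells. Adat2, part of the tRNA adenosine deaminase, rose by 2.56 ± 0.16 and 2.21 ± 0.16, Xpot, the nuclear exporter of tRNA, by 1.56 ± 0.16 and 1.52 ± 0.16, and Elac1, a tRNA 3′ nuclease, had differences of -2.38 ± 0.17 and -1.92 ± 0.17. Of 13 mitochondrial translation factor and amidotransferase genes 0 rose and 1 fell in Th1 cells, and 1 rose and 0 fell in Th2 cells. The gene that fell was Qrsl1, a subunit of the mitochondrial glutaminyl-tRNA amidotransferase (-1.24 ± 0.20), and the gene that rose was Gfm1, a mitochondrial elongation factor (1.13 ± 0.16). Of 5 synthetase-like and trans-editing genes 0 rose in either; 2 fell in Th1 cells, Dtd1 (-1.10 ± 0.25) and Prorsd1 (-1.13 ± 0.18), and 1 fell in Th2 cells, Dtd1 (-1.25 ± 0.25). Dtd1 removes D-amino acids from charged tRNA. The count of genes that fell in Th1 cells was 0 without Th1 replicate 3 and 3 without Th1 replicate 2.

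Of 17 Myc and growth genes 7 rose and 1 fell in Th1 cells, and 9 rose and 1 fell in Th2 cells. The shares of all genes that rose and fell were 13.0% and 15.4% in Th1 cells, and 12.6% and 14.4% in Th2 cells. Myc rose by 3.23 ± 0.28 and 3.27 ± 0.28, Odc1, the first enzyme of polyamine synthesis, by 3.85 ± 0.25 and 3.93 ± 0.25, and Mxd4, a Max partner that opposes Myc, had differences of -4.41 ± 0.24 and -3.30 ± 0.24. Proliferation markers moved with the same groups. All 6 tested markers rose in both, and their median per array ran from 5.86 to 6.70 in naive, 9.47 to 9.74 in Th1 and 9.04 to 9.24 in Th2 cells. On the dendritic cell arrays, which also held message of other cell types, the same median ran from 9.27 to 9.49. The part of proliferation in the synthetase differences was not tested. Stress and dissociation genes spread widely over the naive arrays, with medians of 6.23 to 10.54, against 7.23 to 8.11 in Th1 and 7.90 to 8.09 in Th2 cells. They were higher in B cells (9.54 to 10.64) and dendritic cells (10.01 to 11.93) and lower in brain (5.25 to 5.46), and their part was not tested either.

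In B cells against naive CD4 T cells 1 synthetase rose by the full rule, Vars, where 7.30% of all genes rose, and 0 fell, where 6.92% fell. A miss of the threshold does not show equal levels. Vars, the valine enzyme, read 9.35, 9.03 and 9.18 on the naive arrays and 10.32, 10.35 and 10.29 on the B cell arrays. The B cell arrays lay close together and above every other array for this gene, and the rise was 1.13 ± 0.21 (adjusted p = 0.000336). Its other 2 detected probes rose by 1.52 ± 0.16 and 2.00 ± 0.19. With adjusted p alone, Farsb (0.51 ± 0.09) and Aars (0.38 ± 0.10) were higher as well, beside 15.5% of all genes, and 8 genes were lower, beside 19.5% of all genes. Of these 8, Sars was the furthest, at -0.83 ± 0.16. The cytosolic median was -0.10 and changed sign with the scaling, to 0.70 under median scaling, 0.13 under cyclic loess and 0.12 with the authors' scaled signal, while the median of all genes tested was -0.03, 0.33, -0.14 and -0.17 in the same order. Under median scaling 7 synthetases passed, and the mitochondrial median of -0.34 became 0.37.

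Dendritic cell arrays had lower levels of 6 synthetases than naive CD4 T cells and higher levels of 0. Of all genes 9.83% fell and 13.2% rose. Pars2, the mitochondrial proline enzyme, read 7.27, 6.99 and 6.91 in naive and 5.38, 5.28 and 6.09 in dendritic cells, with the third array apart from the others, at a log2 difference of -1.48 ± 0.19. Ears2, the mitochondrial glutamate enzyme, went from 8.76, 8.77 and 8.70 to 7.29, 7.34 and 7.31, 2.70-fold lower with little spread (-1.43 ± 0.09). Another Ears2 probe was detected on 0 of 3 dendritic cell arrays, at least 1.58-fold lower. Tars2 went from 8.09, 7.92 and 7.96 to 6.65, 6.57 and 6.80 (-1.32 ± 0.11). Those 3 also passed under each other scaling tried, which the cytosolic 3 did not. Sars went from 8.82, 8.27 and 8.58 to 7.26, 7.41 and 7.47 (-1.18 ± 0.16), Hars (histidine) from 6.36, 6.47 and 6.18 to 5.17, 5.07 and 5.27 (-1.17 ± 0.12), and Cars from 7.35, 7.19 and 7.34 to 6.08, 6.30 and 6.40 (-1.03 ± 0.17). The groups did not overlap in any of the 6, but this does not set those genes apart. Over all tested members, 12 of 19 cytosolic and 9 of 13 mitochondrial genes were lower without overlap, and 2 and 1 were higher. The share over all genes is not given here. With no background subtraction Pars2 (-0.90), Cars (-0.72) and Hars (-0.60) did not pass, which left 3. Cars did not pass without dendritic cell replicate 1 (-0.94). Iars2 passed without that array, naive replicate 1 or naive replicate 2 (-1.07, -1.03 and -1.08), Wars2 without naive replicate 3 (-1.01) and Mars2 without dendritic cell replicate 3 (-1.01). The cytosolic median of -0.23 became 0.03 under median scaling, and the mitochondrial median of -0.82 stayed below 0, at -0.55.

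Against B cells, dendritic cell arrays were lower in 2 synthetases and higher in 0. Of all genes 4.53% were lower and 10.2% higher. Vars read 9.07, 8.62 and 9.33 there, a log2 difference of -1.31 ± 0.21. Mars2 read 6.63, 6.43 and 6.93 against 8.04, 7.80 and 8.01 in B cells, a difference of -1.29 ± 0.16. With no background subtraction Mars2 did not pass (-0.995). Farsa passed without B cell replicate 2 or dendritic cell replicate 3 (-1.02 and -1.14). The granulocyte, NK, macrophage, B cell, T cell and erythroid markers given above were present on the dendritic cell arrays, and their part in these differences was not tested. Background signal was also higher on B cell (49.2 to 54.9) and dendritic cell arrays (46.6 to 48.0) than on T cell arrays (34.4 to 39.0), which cannot be told apart from the groups.

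**Figure D4:**
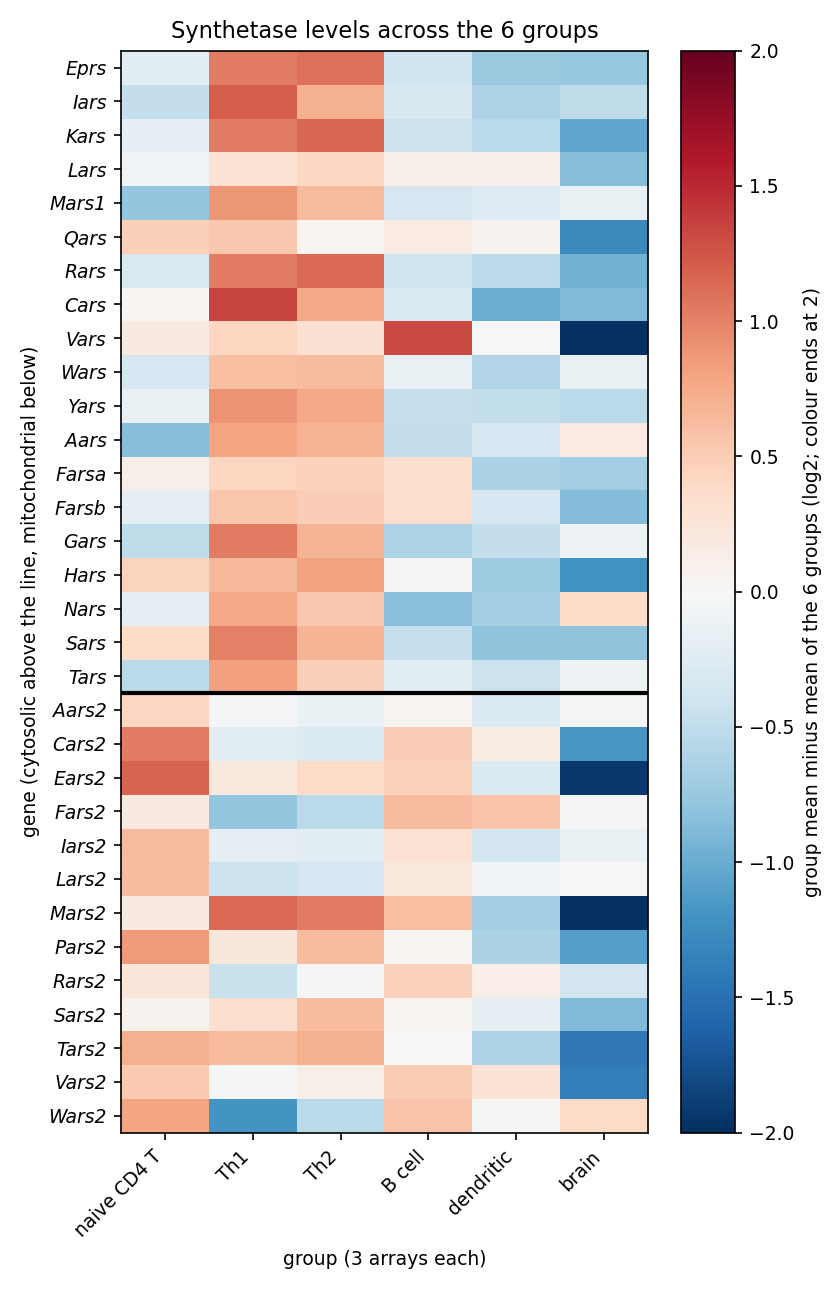
Group mean of each of the 32 tested synthetase genes minus that gene's mean over the 6 groups (log2, colour; 3 arrays a group), with cytosolic genes above the line and mitochondrial genes below. Th1 and Th2 columns are red for most cytosolic genes, Vars is reddest in B cells, and brain is blue for most genes.

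Across the 6 groups, the highest mean was in Th1 cells for 11 cytosolic genes, in Th2 cells for 7 and in B cells for 1, Vars. The lowest was in brain for 10, dendritic cells for 4, naive CD4 T cells for 3 and B cells for 2. The mitochondrial genes were highest in naive CD4 T cells for 8 of 13, in Th2 cells for 2, in B cells for 2 and in Th1 cells for 1. They were lowest in brain for 7, in Th1 cells for 4 and in dendritic cells for 2. Of these, Yars was not above background in brain, Wars2 in Th1 cells and Aars2 in dendritic cells. Yars was also not above background in naive CD4 T, B and dendritic cells, nor Aars2 in Th1 and Th2 cells, so their lowest group is not settled. Since 0 synthetases passed between Th1 and Th2 cells, the order of these groups for a gene is not shown. Aars, Mars1 and Tars had their lowest mean in naive CD4 T cells. The widest range over the 6 groups was that of Vars, 3.59 on the log2 scale, followed by Mars2 at 3.38 and Ears2 at 3.10, and in each the lowest group was brain.

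Whole brain was lower than the mean of the 5 immune groups in 15 synthetases and higher in 0. Of all genes 26.6% were lower and 25.7% higher. In either direction 15 of 32 synthetases passed, beside 52.3% of all genes. All 15 passing synthetases were lower in brain. Of these 8 were cytosolic and 7 mitochondrial. Vars read 6.75, 6.77 and 6.69 in brain, where the lowest immune array read 8.62, a log2 difference of -2.72 ± 0.16. Mars2 read 5.09, 4.95 and 5.25, against 6.43 on the lowest immune array (-2.71 ± 0.12). Ears2 read 5.67, 5.55 and 5.71 (-2.32 ± 0.07; adjusted p = 3.66e-15). Those 3 genes also passed under each other scaling tried, and were the only ones of the 15 to do so. Tars2 (5.71, 5.79 and 6.07; -1.71 ± 0.09), Vars2 (6.29, 6.23 and 5.87; -1.66 ± 0.15) and Qars (8.67, 8.83 and 8.90; -1.55 ± 0.08) were next in size. Some calls near the threshold rested on single arrays: without brain replicate 1, Cars (-0.99), Farsb (-0.98) and Lars (-0.99) did not pass and Eprs (-1.03) and Sars (-1.01) did, without brain replicate 3 Cars (-0.99) and Lars (-0.94) did not, and without dendritic cell replicate 3 Lars (-0.995) did not. With no background subtraction 10 genes were lower, and Cars, Cars2, Hars, Pars2 and Sars2 did not pass (-0.80, -0.98, -0.71, -0.71 and -0.51).

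The brain counts depended on how the arrays were put on a common scale. Quantile normalization gave 15 lower genes, cyclic loess 7, the authors' scaled signal 4 and median scaling 5, of which Wars2 was higher in brain. The median of all genes tested moved from -0.15 to 0.21, 0.20 and 0.47 under these. Relative to that median the cytosolic median was -0.76 with quantile normalization, -0.54 with cyclic loess, -0.43 with the authors' scaled signal and -0.70 with median scaling, and the mitochondrial median was -0.90, -1.03, -0.51 and -0.60. Brain arrays had more detected probes than immune arrays, as given above, and the part of this in the differences was not tested. Aars (0.21 ± 0.08) and Nars (0.45 ± 0.12) had positive differences in brain that missed the fold threshold. For Aars the brain arrays, at 9.77, 9.75 and 9.64, lay above all naive, B and dendritic cell arrays and below all Th1 and Th2 arrays.

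Some probes of a gene disagreed in brain. Sars read 7.38 ± 0.14 (SD, n = 3) in brain on the probe that stood for it, near the dendritic cell mean and below the other immune groups. On its other detected probe the brain mean of 8.25 ± 0.39 was the highest of the 6 groups, 1.44 above the immune mean, which passed as higher. Within the immune groups both Sars probes were highest in Th1 and lowest in dendritic cells. The Mars1 probes gave -0.18 ± 0.19 and -1.47 ± 0.08 in brain, and the Ears2 probes -2.32 and -0.10. In brain 7 genes had a probe with another call than the one that stood for the gene, and 0 had probes that passed in opposite directions.

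**Figure D5:**
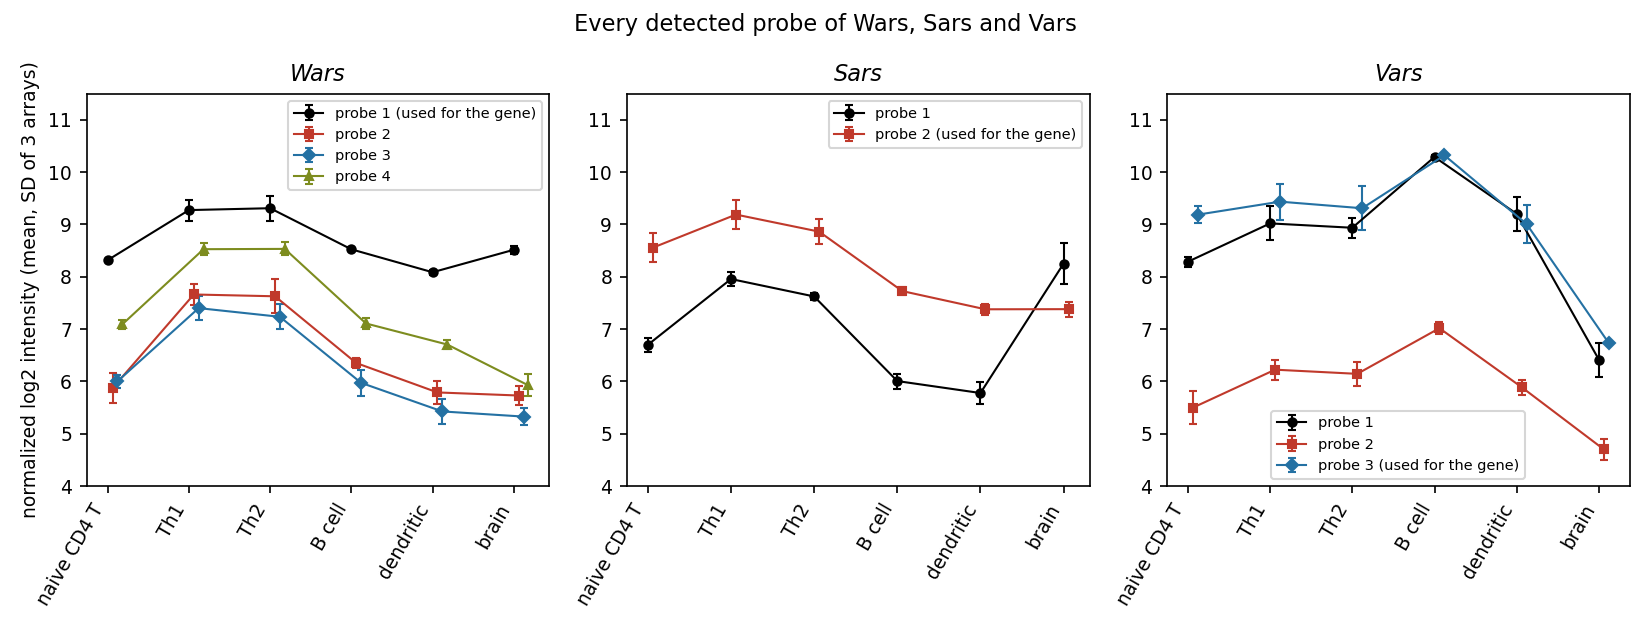
Group mean and SD (3 arrays) of the normalized log2 intensity for every detected probe of Wars, Sars and Vars across the 6 groups; heights of different probes are not comparable, only their shapes. The 4 Wars probes all rise from naive to Th1 and Th2 cells, the Sars probes part in brain at 8.25 and 7.38, and all 3 Vars probes peak in B cells.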

How the data were processed

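RNA of 18 samples in 6 groups, 3 biological replicates each per the series' design text, was read on Illumina mouse BeadChips. The authors deposited an intensity for each of 45281 probes on each array, without normalization, with a detection p-value beside it, and a second table of scaled intensity, which equals the first times 1 factor per array. GenomeStudio is named in the submitters' processing notes, and its version is not given in the sources used. From the deposited intensity, background was corrected with limma's normexp method using the detection p-values (offset 16), followed by quantile normalization and log2. Probes with a detection p under 0.01 on at least 3 arrays were kept. Of 23771 such probes, 19872 had 1 gene symbol in the platform annotation, and each of 12094 genes was represented by its brightest probe over all arrays. The 7 comparisons were fitted over all 18 arrays with limma 3.58.1 (lmFit and eBayes, R 4.3.3) without a block. Passing required a Benjamini-Hochberg adjusted p under 0.05, taken over all genes tested, and a log2 difference of at least 1. Errors after ± are SE for differences and SD over 3 arrays for levels.

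A gene with a group in which no array detected it has only a bound there, given as at least N-fold: the detected group's mean against the dim group's mean, with each dim array held at or above the lowest signal among its detected probes. The number of arrays limits the precision. Samples with the same replicate number deviated together between Th1 and Th2 cells (correlations over genes of 0.592, 0.316 and 0.675). In no other pair of groups were all 3 correlations above 0.1, the limit set for pairing. Some were above it in part, as for B and dendritic cells (0.073, 0.192 and 0.301) and Th1 and dendritic cells (0.226, 0.029 and 0.209). Only Th1 and Th2 arrays were treated as paired, and a weaker link between other groups was not tested. Arrays of a group shared at most 1 identical probe signal, so none was a copy of another.

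Members, lists and alternatives were chosen with earlier results of these data known. In each comparison the text gives array values for up to 6 passing members with the largest change and for Wars, Iars, Sars, Gars, Eprs and their mitochondrial counterparts, and from each list up to 3 passing genes and 1 other. Promoters were read from RefSeq (GRCm38.p6) with Python 3.11.15 and pandas 2.3.3. The test was checked on simulated data. Alternatives were other background corrections, scalings, filters, probe rules, fits and thresholds, a replicate block and each array left out.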

Additional observations from a re-analysis of the deposited data

How the results depend on the processing

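The counts of synthetases that passed were 13 for Th1 and 10 for Th2 against naive CD4 T cells, 0 for Th1 against Th2, 1 for B cells and 6 for dendritic cells against naive cells, 2 for dendritic cells against B cells and 15 for brain. Of all genes 28.4%, 27.0%, 4.50%, 14.2%, 23.0%, 14.7% and 52.3% passed, in the same order. With no fold threshold the synthetase counts were 25, 25, 3, 11, 18, 13 and 24. At an unadjusted limma p under 0.05 they were 26, 26, 8, 15, 21, 16 and 24 of 32. The shares of all genes were then 57.3%, 56.4%, 24.9%, 42.7%, 55.2%, 45.3% and 86.9%. Shares under the settings that follow are not given here, so those counts are not compared with all genes. Median scaling gave 7 for B cells, 3 for dendritic cells against naive cells, 9 against B cells and 5 for brain. With no background subtraction the counts were 9, 8, 0, 1, 3, 1 and 10. Cyclic loess gave 7 and the authors' scaled signal 4 for brain. The cause of these moves was not tested, other than that dropping the fold threshold admits smaller differences. Leaving out 1 array at a time gave 12 to 16, 9 to 12, 0 to 0, 1 to 1, 6 to 7, 2 to 3 and 13 to 15. With the replicate number as a block the counts were 13, 10, 0, 1, 6, 2 and 15, and the block changed no call of a synthetase.

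The cytosolic median stayed positive and the mitochondrial median negative for Th1 and Th2 against naive cells under every background correction, scaling, filter and probe rule tried. The replicate block, the variance trend, the fit to only the compared groups and the fold threshold leave a log2 difference as it is. They could not change these signs. Under all 3 other scalings 8 of the 13 Th1 calls passed (Aars, Cars2, Gars, Iars, Lars2, Mars1, Rars and Wars2) and 4 of the 10 Th2 calls (Aars, Cars2, Gars and Rars). Over all synthetases, comparisons and settings, 4003 of 4384 values kept their direction and their side of the threshold, 133 passed that had not, 97 no longer passed, and 151 that passed in neither changed sign. No value that passed changed sign. These totals include the settings that cannot change a direction. Dim genes such as Yars, Tars and Wars2 lie close to background, which limits the precision of their differences.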
